A study of Mus musculus with 7 samples.

Results

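The hepcidin genes Hamp and Hamp2, transferrin (Trf), the transferrin receptors Tfr2 and Tfrc, ferroportin (Slc40a1), ceruloplasmin (Cp), hemopexin (Hpx) and the ferritin chains Fth1 and Ftl1 were followed across 7 mouse tissues. These 10 genes were chosen by name for their place in iron handling, out of 50344 gene names in the data. The study made total RNA-Seq libraries from liver, kidney, cortex and skeletal muscle and from 3 fat depots, namely interscapular brown (BAT), visceral (VAT) and subcutaneous (SCAT) adipose tissue. All mice were wild-type (wt) animals of 36 weeks, labelled C57BL/6 and given as C57BL/6N in the study's text, on the diet labelled NCD, described in the study as the lean control state. Each tissue has 1 library, so no difference between tissues could be set against a spread between replicates, and no p-value or SD is given. The labels do not say whether the 7 tissues came from the same mouse or whether animals were pooled.

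The expression unit is FPKM, fragments scaled for transcript length and library size. Levels were set side by side between genes and between tissues. FPKM does not correct for differences in RNA composition, so small folds between tissues depend on the scaling. The table lists no fragment counts, the depth of the libraries is therefore unknown, and no interval was computed. Enrichment in a tissue required 1 FPKM or more and a value of log2(FPKM + 0.1) that exceeded each of the other 6 tissues, or those of them with a value, by 2 or more, which is 4-fold. Marker lists were checked in each library. Enriched in cortex were all 6 oligodendrocyte markers, all 3 neuronal markers and 1 of 4 astrocyte markers, of which Aldh1l1 was highest in liver. All 4 proximal tubule markers were enriched in kidney. The 3 adipocyte markers summed to 484 FPKM in VAT, 211 in SCAT and 673 in BAT, against at most 25.2 elsewhere, and 1 of them was enriched, in BAT. Of 4 muscle fibre markers, 1 had a value in every tissue, Tnnt3, and it was enriched in skeletal muscle. The VAT library also had the 3 epididymal markers at a summed 2639 FPKM, and the SCAT library had 3 lymphocyte markers at a summed 89.5 FPKM, against at most 2.80 FPKM in any other tissue. In SCAT 3 pancreatic acinar markers also summed to 77.3 FPKM, against at most 8.77 FPKM elsewhere.

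Iron travels in plasma bound to transferrin and enters cells when transferrin docks on transferrin receptor 1, the product of Tfrc. Inside the cell it is used for haem and iron-sulphur clusters or stored in ferritin, a shell built of heavy (Fth1) and light (Ftl1) chains, and it leaves through ferroportin, the only known exporter of iron from mammalian cells. Hepcidin, a peptide hormone of the hepatocyte, binds ferroportin and has it degraded. Liver cells set hepcidin output by sensing transferrin through Tfr2 and HFE and by BMP signalling, while within each cell iron regulatory proteins bind hairpins called iron-responsive elements (IREs) in messenger RNAs and so block translation of ferritin and ferroportin and protect the receptor's messenger RNA from decay.

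The IRE hairpins are shown first because they are the elements through which iron acts on several of these transcripts. The principal transcripts of the 10 genes (GENCODE, GRCm38) were searched for a C followed by 5 bases, the loop CAGTGN and 5 bases that pair with the first 5, G-T pairs allowed. The search found 7 hairpins in 4 genes. In the sequences, printed 5′ to 3′ with 5 further bases on each side, capitals mark the bulged C and the 6-base loop.
Tfrc 3′ UTR, hairpin 1, chr16:32631220-32631246, plus strand: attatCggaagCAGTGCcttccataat
Tfrc 3′ UTR, hairpin 2, chr16:32631599-32631625, plus strand: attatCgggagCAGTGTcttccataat
Tfrc 3′ UTR, hairpin 3, chr16:32631664-32631690, plus strand: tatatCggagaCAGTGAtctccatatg
Tfrc 3′ UTR, hairpin 4, chr16:32631711-32631737, plus strand: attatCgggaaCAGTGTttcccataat
Slc40a1 5′ UTR, chr1:45925466-45925492, minus strand: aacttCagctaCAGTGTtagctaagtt
Fth1 5′ UTR, chr19:9982733-9982759, plus strand: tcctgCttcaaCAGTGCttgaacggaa
Ftl1 5′ UTR, chr7:45459780-45459806, minus strand: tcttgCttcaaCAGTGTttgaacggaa

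The 4 hairpins found in the uptake receptor thus lay behind the coding sequence, in a 3′ UTR of 2458 bases. In the exporter and both ferritin chains the 1 found in each lay in front of it. Such hairpins were rare in the annotation: 20 of 20683 genes with a 5′ UTR (0.0967%) held one there and 118 of 20945 with a 3′ UTR (0.563%) held one there, and 1 gene held 2 or more in a 3′ UTR. Hamp, Hamp2, Tfr2, Trf, Cp and Hpx had none. Among 74 other genes of iron handling with a coding transcript, 1 had such a hairpin, Alas2 in its 5′ UTR, which encodes the erythroid enzyme for the first step of haem synthesis. A match describes the letters only, and protein binding was not measured. Hairpins with another loop, with unpaired bases in the stem or in other transcripts were not sought. A gene without a match may therefore still hold an element.

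The 6 genes in which the search found no hairpin were also the 6 that met the rule for enrichment. All 6 were enriched in liver. The 4 genes with a hairpin were enriched in no tissue. This match held at the 4-fold limit but not at every setting: at 2-fold Slc40a1 and Ftl1 were also enriched in liver, and with a pseudocount of 1 or a minimum of 5 FPKM Hamp2 was not. Nor did it extend beyond the 10 genes. Among 70 other expressed genes of iron handling, the search found a hairpin in Alas2 alone. Of the 70, 7 were enriched in liver and 60 in no tissue. Among all 19203 gene names with at least 1 FPKM in any tissue, 3.83% were enriched in liver and 23% in any tissue; among the 14997 protein-coding names the share for liver was 3.41%. The log2 ratio of liver over the highest other tissue had a median of 3.35 over the 10 genes and of −1.34 over the 19203 names. Of the 10 genes, 8 had their highest FPKM in liver, against 16.3% of the 19203 names. In tissue RNA of this kind, fewer cells of a type and less RNA per cell cannot be told apart.

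**Figure D1:**
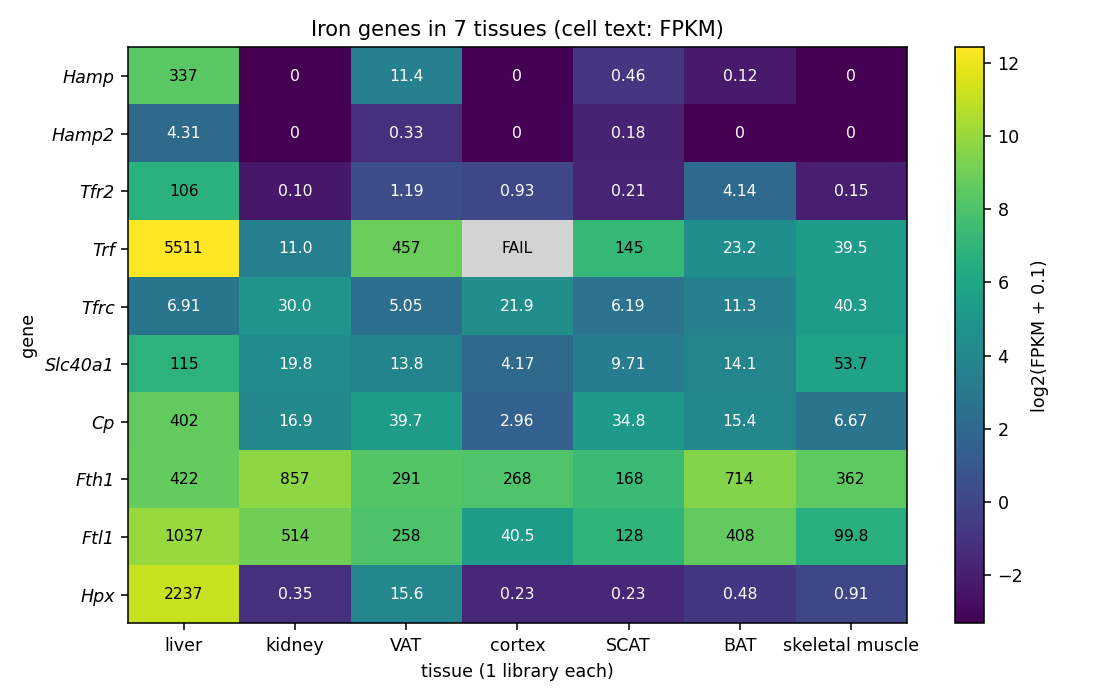
Level of the 10 iron genes (rows) in the 7 tissues (columns, 1 library each), coloured by log2(FPKM + 0.1) with the FPKM written in each cell; the grey cell marks the failed estimate of Trf in cortex. The liver column is highest for 8 genes, while Tfrc peaks in skeletal muscle at 40.3 FPKM and Fth1 in kidney at 857 FPKM.

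Hamp (ENSMUSG00000050440, chr7:30942368-30944032, minus strand), which encodes hepcidin, reached 337 FPKM in liver. It was listed at 11.4 FPKM in VAT, 0.460 in SCAT and 0.121 in BAT, and at 0 in kidney, cortex and skeletal muscle. Liver was therefore 29.5-fold above VAT, the next tissue, and VAT in turn was 24.8-fold above SCAT. On the scale of log2(FPKM + 0.1) the gap between liver and VAT was 4.87. Hamp ranked 158 of 14997 protein-coding names in liver.

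Hamp2, the second hepcidin gene of the mouse, lies 17686 bases from Hamp on the same strand (ENSMUSG00000056978, chr7:30922372-30924681). It was listed at 4.31 FPKM in liver, 0.331 in VAT and 0.182 in SCAT and at 0 in the other 4 tissues. Liver was 13.0-fold above VAT (log2 ratio 3.35). Its first 3 tissues were those of Hamp in the same order, at a level 78.2-fold below Hamp in liver, 34.5-fold below it in VAT and 2.53-fold below it in SCAT. The coding sequences of the pair were 92.5% identical, yet their transcripts shared no stretch of 101 bases, the read length in the labels. Of the 75-base stretches of Hamp, a length chosen after seeing the data, 13 of 336 also occurred in Hamp2. At 410 bases for Hamp and 437 for Hamp2 they were the shortest transcripts of the 10 genes.

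The 250 bases before the start sites of both hepcidin genes (RefSeq, GRCm38.p6) are shown because the pair differs so widely in level in liver while these bases are 89.7% identical in an alignment of 253 columns. Capitals mark GGCGCC, the core of the BMP-responsive element known from the hepcidin promoter, and TTCNNNGAA, the general STAT motif, which the bases TTCTTGGAA match.
Hamp, chr7:30944030-30944279, minus strand: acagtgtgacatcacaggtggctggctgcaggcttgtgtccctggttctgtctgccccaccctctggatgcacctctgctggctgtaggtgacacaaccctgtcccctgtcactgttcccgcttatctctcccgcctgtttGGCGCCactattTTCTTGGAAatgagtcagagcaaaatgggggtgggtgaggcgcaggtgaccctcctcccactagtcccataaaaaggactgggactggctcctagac
Hamp2, chr7:30924182-30924431, minus strand: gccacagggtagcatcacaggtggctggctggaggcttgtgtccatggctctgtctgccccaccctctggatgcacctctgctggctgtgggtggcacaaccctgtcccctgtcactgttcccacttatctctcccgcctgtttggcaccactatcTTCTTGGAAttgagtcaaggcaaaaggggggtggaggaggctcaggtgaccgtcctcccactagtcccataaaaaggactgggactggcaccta

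In Hamp, GGCGCC began 109 bases and the STAT motif 97 bases before the start site. Hamp2 had the STAT motif at 94 bases before its start site and no GGCGCC: the aligned 6 bases differed by 1 substitution, G4A, counted from 1 at the first base of the motif in Hamp. This search and the shares below used the strand of the gene only. Neither window held the E-box CACGTG or the TATA box letters TATAAA. Among 32851 promoters, searched over 250 bases before to 50 after the start site, 11.9% held GGCGCC, 8.30% held TTCNNNGAA, 7.15% held CACGTG and 8.32% held TATAAA. The motifs found did not overlap each other. The RefSeq window of Hamp2 lies inside the GENCODE bounds of the gene given above, which reach further upstream. Promoter activity was not measured, and a link of these letters to the levels was not tested.

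Tfr2 (ENSMUSG00000029716, chr5:137569840-137587481, plus strand), the receptor through which hepatocytes sense transferrin, was listed at 106 FPKM in liver. It had 4.14 FPKM in BAT, 1.19 in VAT and 0.930 in cortex. SCAT with 0.211, skeletal muscle with 0.151 and kidney with 0.105 FPKM stood lowest, each less than 1.5-fold from its neighbour. Liver was 25.7-fold above BAT (log2 ratio 4.65), and Tfr2 was the only one of the 6 liver-enriched genes for which VAT was not the second tissue.

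The plasma carriers were among the most abundant transcripts of the liver library. Trf (ENSMUSG00000032554, chr9:103204001-103230444, minus strand) was listed at 5511 FPKM in liver, 457 in VAT, 145 in SCAT, 39.5 in skeletal muscle, 23.2 in BAT and 11.0 in kidney. It met the rule for enrichment against 5 other tissues, since cortex has no value. It ranked 6 of 14997 protein-coding names in liver and 25 in VAT, and liver was 12.1-fold above VAT (log2 ratio 3.59). The locus that carries Trf in the table also carries Gm20425 and Srprb, and 77.3% of the 101-base stretches of the Trf transcript also occur in the annotated transcripts of Gm20425, so the value belongs to the 3 names together. In cortex the authors' program failed to fit this locus in all 6 comparisons. The listed 41.7 FPKM was not used, and the order of Trf rests on 6 tissues. Oligodendrocytes and choroid plexus, known sites of transferrin in the brain, were thus not assessed for it.

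Hpx (ENSMUSG00000030895, chr7:105591613-105600137, minus strand), which scavenges free haem in plasma, had the largest log2 ratio of liver over the next tissue among the 10 genes. It was listed at 2237 FPKM in liver, 15.6 in VAT, 0.912 in skeletal muscle, 0.478 in BAT, 0.351 in kidney, 0.234 in cortex and 0.231 in SCAT. Liver was 143-fold above VAT (log2 ratio 7.15) and VAT was 17.1-fold above skeletal muscle, while the last 4 tissues stood less than 1.5-fold apart from neighbour to neighbour.

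Cp (ENSMUSG00000003617, chr3:19957054-20009145, plus strand), the copper ferroxidase of plasma that oxidizes exported iron for loading onto transferrin, was listed at 402 FPKM in liver. VAT with 39.7 and SCAT with 34.8 FPKM followed, 1.14-fold apart. Kidney had 16.9, BAT 15.4, skeletal muscle 6.67 and cortex 2.96 FPKM. Liver was 10.1-fold above VAT (log2 ratio 3.34), and both white depots stood above the 4 remaining tissues.

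The level in VAT relative to liver differed among the liver-enriched iron genes. It was 9.88% of liver for Cp, 8.28% for Trf, 7.69% for Hamp2, 3.39% for Hamp, 1.12% for Tfr2 and 0.699% for Hpx. Of 6 hepatocyte markers, 4 had a value in every tissue, and these stood in VAT at 0.850% of liver for Ttr, 0.701% for Apoa1, 0.559% for Fgb and 6.41% for Cyp2e1, an enzyme that adipose tissue also transcribes. Their summed FPKM was 11466 in liver and 348 in VAT, it ranged from 11.7 to 378 over the 6 tissues other than liver, and none of the 4 was listed at 0 in any tissue. Over 208 protein-coding names enriched in liver with at least 100 FPKM there, the VAT level had a median of 1.13% and quartiles of 0.666% and 6.47% of liver. Hpx and Tfr2 thus lay inside the quartiles, as did Hamp, and Cp and Trf above the upper one, while Hamp2, at 4.31 FPKM in liver, is below the level of these names. The part of hepatocyte RNA in the VAT values, and that of the epididymal RNA whose markers were enriched in VAT, was not tested.

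In SCAT the same measure was 8.67% of liver for Cp, 4.23% for Hamp2, 2.62% for Trf, 0.199% for Tfr2, 0.137% for Hamp and 0.0103% for Hpx. The median of the 208 names in SCAT was 0.0916%. Hpx stood at the level of Ttr (0.0124%), Apoa1 (0.0113%) and Fgb (0.0124%), while Cyp2e1 had 1.48%. Cp and Trf lay above the upper quartile of the 208 names, which was 2.38%. In BAT, Tfr2 had 3.89% of its liver level, Cp 3.82%, Trf 0.420%, Hamp 0.0360% and Hpx 0.0214%, and Hamp2 was listed at 0. The 208 names had a median of 0.0968% and an upper quartile of 3.01% there.

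**Figure D2:**
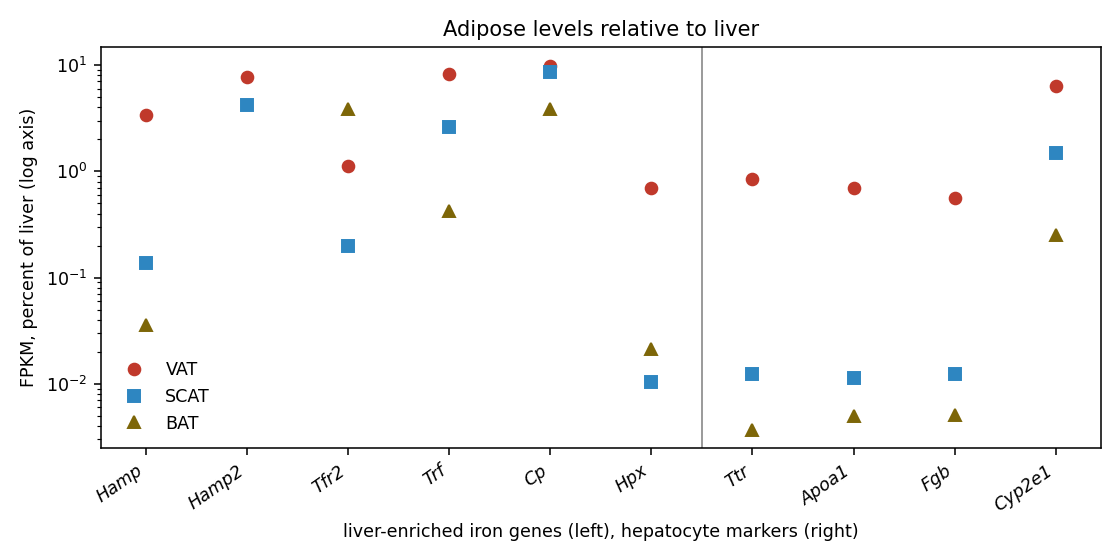
FPKM in VAT (circles), SCAT (squares) and BAT (triangles) as percent of the liver FPKM on a log axis, for the 6 liver-enriched iron genes at the left and the 4 hepatocyte markers with a value in every tissue at the right; Hamp2 has no point in BAT, where it is listed at 0. Cp and Trf stand at 9.88% and 8.28% in VAT while Hpx stands at 0.699%, next to Apoa1 at 0.701%.

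Tfrc (ENSMUSG00000022797, chr16:32608920-32632794, plus strand), the uptake receptor, was highest outside liver. Skeletal muscle had 40.3 FPKM, kidney 30.0, cortex 21.9, BAT 11.3, liver 6.91, SCAT 6.19 and VAT 5.05 FPKM. The range from VAT to skeletal muscle was 7.97-fold, and the log2 ratio of liver over the highest other tissue was −2.53. Skeletal muscle, kidney and cortex stood less than 1.5-fold apart from neighbour to neighbour, as did liver, SCAT and VAT at the other end.

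The receptors changed places between liver and the other tissues. The FPKM of Tfr2 was 15.4-fold that of Tfrc in liver, whereas Tfrc was 287-fold above Tfr2 in kidney, 266-fold in skeletal muscle, 29.3-fold in SCAT, 23.6-fold in cortex, 4.23-fold in VAT and 2.73-fold in BAT. The coding sequences of the receptors were 55.6% identical. Erythroid precursors are known for high Tfrc, and erythroid markers were present in every library: the 6 of them summed to 2411 FPKM in VAT, 2182 in BAT, 1310 in kidney, 1075 in liver, 939 in SCAT, 840 in skeletal muscle and 161 in cortex. Nearly all of the sum was globin, and the erythroid enzyme Alas2 had another order, with 28.6 FPKM in liver and 10.2 in VAT. The part of erythroid RNA in the values of Tfrc was not tested.

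Slc40a1 (ENSMUSG00000025993, chr1:45908068-45926523, minus strand), the exporter on which hepcidin acts, was listed at 115 FPKM in liver and 53.7 in skeletal muscle. Kidney had 19.8, BAT 14.1, VAT 13.8, SCAT 9.71 and cortex 4.17 FPKM. Liver was 2.14-fold above skeletal muscle (log2 ratio 1.10), below the 4-fold of the rule. Kidney, BAT, VAT and SCAT stood less than 1.5-fold apart from neighbour to neighbour. These values come from a locus that also carries the name Gm18303 and that, by its place in the table, is on the other strand from the annotated gene. The second locus of the name, on the annotated strand, had 48.4 FPKM in liver, 25.3 in skeletal muscle, 9.49 in kidney, 6.44 in BAT, 6.41 in VAT, 3.71 in SCAT and 1.66 in cortex, which is the same order at a level 2.08- to 2.62-fold lower.

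Macrophages are known for high ferroportin, and in liver the Kupffer cells recycle iron from red cells. Of 3 Kupffer cell markers, Clec4f (43.3 FPKM) and Vsig4 (14.5 FPKM) were enriched in liver, and Marco was enriched in SCAT at 52.3 FPKM. The 5 general macrophage markers summed to 61.3 FPKM in liver, 65.0 in VAT, 64.3 in SCAT, 42.7 in skeletal muscle, 41.3 in BAT, 16.9 in cortex and 11.4 in kidney. In VAT, with a like sum of these markers, Slc40a1 stood at 12% of its liver level; the part of macrophages in the values of Slc40a1 was not tested.

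The ferritin chains were abundant in every tissue. Fth1 (ENSMUSG00000024661, chr19:9980598-9985098, plus strand), the heavy chain with ferroxidase activity, had 857 FPKM in kidney, 714 in BAT, 422 in liver, 362 in skeletal muscle, 291 in VAT, 268 in cortex and 168 in SCAT. Its whole range was 5.09-fold, the narrowest of the 10 genes. It shares 0.502% of its 101-base stretches with Gm6977, which was listed at 155 FPKM in kidney and 112 in BAT. It ranked 19 of 14997 protein-coding names in kidney and 23 in cortex, where it was the only one of the 10 genes with a value above 100 FPKM.

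Ftl1 (ENSMUSG00000050708, chr7:45457944-45459884, minus strand), the light chain that supports formation of the mineral core, had 1037 FPKM in liver, 514 in kidney, 408 in BAT, 258 in VAT, 128 in SCAT, 99.8 in skeletal muscle and 40.5 in cortex. The range was 25.6-fold, and liver was 2.02-fold above kidney (log2 ratio 1.01). Ftl1 shares reads with near-identical copies: 78.3% of the 101-base stretches of its transcript also occur in transcripts of 6 other annotated genes, among them Ftl1-ps1 with 59.0%. Ftl1-ps1 was listed at no more than 0.112 FPKM in any tissue, while Gm10252, with 29.5% of the stretches, had no value. How the counting divided such reads is not known, so the level of Ftl1 is uncertain.

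The balance of the chains differed between tissues more than their sum. By the listed values Ftl1 exceeded Fth1 in liver alone, at a ratio of 2.46. All ratios and sums of the chains share the uncertainty in the level of Ftl1 given above. The ratio of Ftl1 to Fth1 was 0.886 in VAT, 0.758 in SCAT, 0.600 in kidney, 0.572 in BAT, 0.276 in skeletal muscle and 0.151 in cortex. The summed FPKM of both chains was 1459 in liver, 1371 in kidney, 1121 in BAT, 549 in VAT, 461 in skeletal muscle, 309 in cortex and 296 in SCAT. Fth1 made up 28.9% of the sum in liver, 62.5% in kidney and 86.9% in cortex, so that liver and kidney held a like sum in unlike composition. The coding sequences of the chains were 61.7% identical, and each had its hairpin, printed above, in the 5′ UTR.

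**Figure D3:**
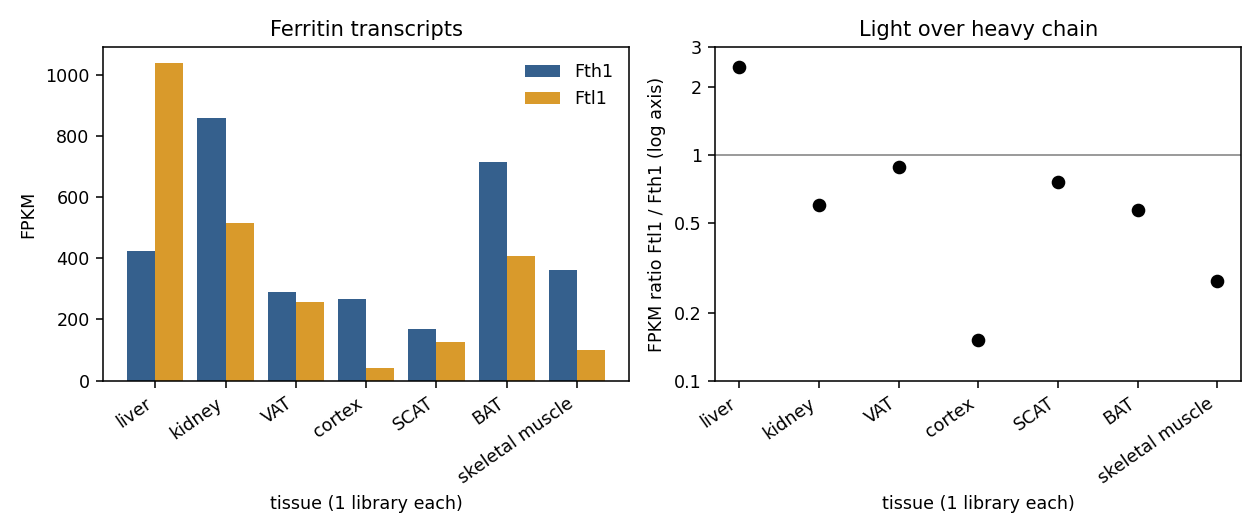
FPKM of Fth1 and Ftl1 in the 7 tissues (left, bars, 1 library each) and the FPKM ratio of Ftl1 to Fth1 on a log axis (right, points, with a line at 1). The light chain exceeds the heavy chain in liver at a ratio of 2.46, and the ratio is lowest in cortex at 0.151.

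Storage, by Fth1 alone, and export were also set against each other. Fth1 made up 28.9% of the ferritin sum in liver and 78.4% in skeletal muscle, so the ratios leave out an unequal part of ferritin. Fth1 was 3.67-fold above Slc40a1 in liver and 6.74-fold in skeletal muscle. In the other tissues the fold was 17.3 in SCAT, 21.1 in VAT, 43.4 in kidney, 50.5 in BAT and 64.3 in cortex. Liver and skeletal muscle, the tissues with the highest Slc40a1, thus had the lowest ratios. With the Slc40a1 locus on the annotated strand the fold was 8.72 in liver, 14.3 in skeletal muscle and 45.4 to 161 in the other tissues.

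Of the 10 names, 5 had a second locus in the table (Hamp, Tfr2, Tfrc, Slc40a1 and Hpx), in each case on the other strand by the order of the loci. The locus with the higher maximum was used. For Hpx it was 3.4- to 8.25-fold above its partner, for Tfr2 3.67- to 7.46-fold, for Hamp 4.17- to 8.03-fold over the 4 tissues in which the used locus was above 0, and for Tfrc 2.54- to 4.52-fold. The opposite-strand locus had the same highest tissue as the used one, liver for Hamp, Tfr2 and Hpx and skeletal muscle for Tfrc. The order of the lower tissues differed in part. For Tfr2 it had 0.253 FPKM in cortex and 0.214 in VAT, the reverse of the used locus. Antisense transcripts and reads of the gene itself placed on the wrong strand cannot be told apart here. Fth1 and Ftl1 faced loci under other names. The locus of Best1 had 161 FPKM in kidney and stood 4.35- to 5.31-fold below Fth1. That of Gys1, the glycogen synthase of muscle, stood 1.82- to 2.17-fold below Ftl1 in 6 tissues and above it in skeletal muscle, where it had 146 FPKM.

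**Figure D4:**
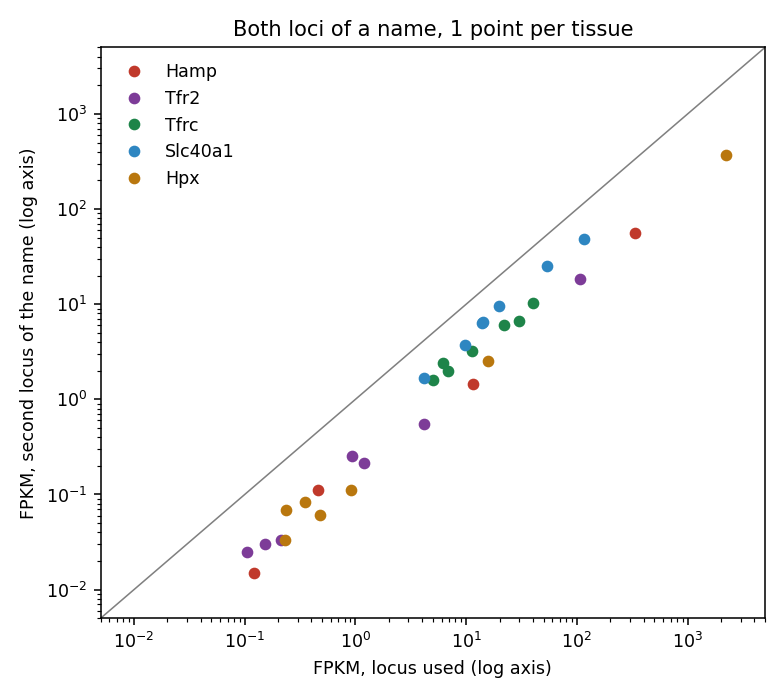
FPKM of the locus used (x axis) against the second locus of the same name (y axis), both on log axes, with 1 point per tissue for Hamp, Tfr2, Tfrc, Slc40a1 and Hpx; tissues listed at 0 in either locus are left out and the line marks equality. All points lie below the line, at 2.08- to 2.62-fold for Slc40a1 and 2.54- to 4.52-fold for Tfrc.

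For each gene the 3 names with the most like profile were found by the root mean square difference of log2(FPKM + 0.1), each profile centred on its own mean, over 19085 to 19097 other names with at least 1 FPKM in any tissue. Nearest to Hamp were Mup14 (0.90), Cyp2d40 and Tat. Hamp2 had 1700001C19Rik (0.43), 4930480G23Rik and Dsc2, Tfr2 had Ffar4 (0.90), F7 and Cyp2c70, and Hpx had Ugt2b36 (0.32), Mup3 and Mug1. Trf, over 6 tissues, had C6 (0.66), Wfdc21 and Serpina3n, and Cp had Iigp1 (0.49), Sdc1 and Nxpe2. All of these had their highest FPKM in liver.

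The genes outside the liver-enriched set had closer neighbours, by a measure that was not scaled for the range of a profile. Their ranges were 5.09-fold (Fth1) to 27.6-fold (Slc40a1). In the liver-enriched set they were 23.7-fold (Hamp2) to 9701-fold (Hpx), values of 0 left out. Slc40a1 was followed by Rxra (0.11), Ece1 (0.27) and Ddi2. Rxra, the nuclear receptor that pairs with many others, had 76.8 FPKM in liver, 39.8 in skeletal muscle, 14.1 in kidney, 9.10 in BAT, 8.66 in VAT, 7.64 in SCAT and 2.90 in cortex, the order of Slc40a1 itself. Tfrc had Trak2 (0.30), Lmtk2 and Gm5735, of which Trak2, an adaptor of mitochondrial transport, was also highest in skeletal muscle, at 27.5 FPKM. Ftl1 had its own pseudogene Ftl1-ps2 (0.24), Pi4k2b and Pcx. Fth1 had Best1 (0.09), the locus opposite it, Dpp7 (0.17) and Pigg. Among the 10 genes the closest pairs were Hamp2 and Cp (0.78), Tfrc and Fth1 (1.05) and Fth1 and Ftl1 (1.18). These likenesses describe 7 libraries and carry no test.

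The other genes of iron handling were described from 4 lists with 76 names, of which 2 are second names of listed genes. In the table were 72 of them, and 70 reached 1 FPKM in any tissue. Of these, 7 were enriched in liver, 2 in kidney, 1 in skeletal muscle and 60 in none, beside 3.83% of all 19203 names for liver and 23% for any tissue. The median log2 ratio of liver over the highest other tissue was −0.43 over the 70, beside −1.34 over all 19203 names.

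The list of hepcidin regulators held 25 names, of which Hjv and Fam132b are other names of its members Hfe2 and Erfe. The other 23 were measured and 3 were enriched in liver, beside 3.83% of all 19203 names for liver and 23% for any tissue. These were Creb3l3, a transcription factor of the hepatocyte (129 FPKM, next tissue kidney with 0.844), Tmprss6 and Bmp2. Tmprss6, the protease that cleaves hemojuvelin, had 72.3 FPKM (next cortex with 2.97), and Bmp2 had 4.49 FPKM (next VAT with 0.662). Bmp6, the ligand that rises with liver iron, had 18.2 FPKM in liver and 8.20 in kidney and was not enriched. Hfe2, which encodes the BMP coreceptor hemojuvelin, was enriched in skeletal muscle at 90.5 FPKM and had 13.7 in liver, 2.92 in BAT and at most 0.319 elsewhere. Hfe, whose product partners the transferrin receptors, was highest in 3 tissues of like level, with 8.76 FPKM in BAT, 8.64 in liver, 8.19 in skeletal muscle, 6.93 in VAT, 2.82 in kidney, 2.39 in SCAT and 0.624 in cortex. The median log2 ratio of liver over the list was −0.35.

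Of 21 genes for uptake, reduction and export of iron and haem, 19 reached 1 FPKM. Of these, 4 were enriched in liver and 2 in kidney, beside 3.83% of all 19203 names for liver and 23% for any tissue. Hp, the haptoglobin that binds free haemoglobin, had 1338 FPKM in liver and 313 in BAT, and Ambp, the precursor of a haem-binding plasma protein, had 1299 in liver and 7.64 in VAT. Lrp1, the receptor for the complex of hemopexin and haem, had 74.3 FPKM in liver and 16.7 in VAT. Slc39a14, the importer of iron that is not bound to transferrin, had 28.2 FPKM in liver and 4.87 in kidney. The metalloreductase genes Steap2 (9.45 FPKM) and Steap1 (2.77 FPKM) were enriched in kidney, where the importers Slc11a2 (33.8 FPKM) and Slc39a8 (7.40 FPKM) also peaked without meeting the rule. Heph, the membrane-bound relative of Cp, was highest in VAT (7.05 FPKM) and SCAT (6.13 FPKM) and lowest in liver (0.563 FPKM). Steap3, the reductase of the transferrin pathway, had 3.68 FPKM in skeletal muscle and 2.69 in liver.

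None of the 5 expressed genes of iron sensing and ferritin turnover was enriched, beside 23% of all names for any tissue. Aco1, which encodes iron regulatory protein 1, had 65.9 FPKM in kidney, 43.7 in liver and 33.9 in BAT, and its lowest value, 3.04, was in cortex. Ireb2, which encodes iron regulatory protein 2, had 26.5 FPKM in liver, 10.3 in kidney and 6.57 in cortex. Ireb2 was thus above Aco1 in cortex and below it in the other 6 tissues. Ncoa4, the receptor that delivers ferritin for breakdown, had 97.5 FPKM in BAT, 63.5 in liver and 25.6 to 45.0 elsewhere, on a locus that also carries Msmb and Parg.

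None of the 23 measured genes of mitochondrial iron, iron-sulphur clusters and haem was enriched either, beside the same 23% of all names. Alas1, the housekeeping enzyme for the first step of haem synthesis, had 504 FPKM in liver, 159 in BAT and 108 in skeletal muscle. Alas2, the erythroid form, had 28.6 FPKM in liver, 10.2 in VAT and 2.2 to 7.74 elsewhere. Hmox1, which breaks down haem, ranged from 0.545 FPKM in cortex to 5.12 in BAT. The highest tissue was liver for 8, BAT for 7, skeletal muscle for 6 and kidney for 2 of the 23 genes. Of all 19203 names, 16.3% were highest in liver, and no such share was computed for the other tissues.

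**Figure D5:**
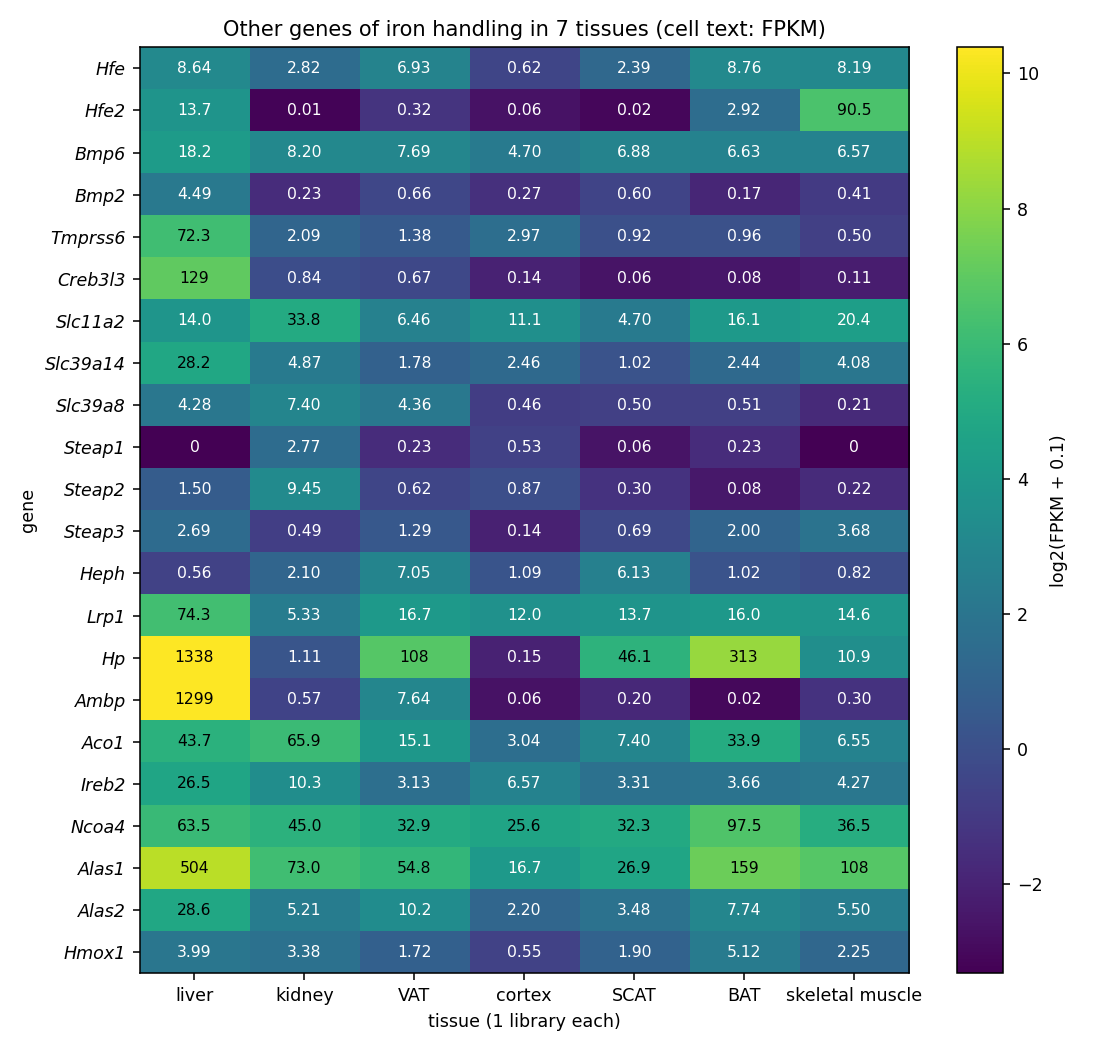
Level of 22 other genes of iron handling (rows) in the 7 tissues (columns, 1 library each), coloured by log2(FPKM + 0.1) with the FPKM in each cell. Hp and Ambp reach 1338 and 1299 FPKM in liver, Hfe2 peaks in skeletal muscle at 90.5 FPKM, and Steap2 peaks in kidney at 9.45 FPKM.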

How the data were processed

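The authors removed ribosomal reads with Bowtie2 2.2.9, aligned reads to GRCm38 with STAR 2.6.0c and, per the labels and the paper's methods, assembled and compared tissues with Cufflinks 2.2.1 and its cuffdiff program. The deposited table gives FPKM for 94339 loci in 21 comparisons of 7 libraries, with no fragment counts. Its fold change, test statistic, p-value and q-value columns hold the authors' own comparisons and were not used. The kit marks strand, but the library setting of the quantification is not given in the sources used here.

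The 10 genes, the gene lists and the marker lists were chosen with earlier results of these data known. Names were split at commas, and of several loci the one with the highest maximum FPKM was taken. Zeros with the status LOWDATA were treated as missing, as were values found only in comparisons with the status FAIL. Strand was inferred from the listing order of each chromosome's loci; this placed 75.3% of 61913 combinations of locus and gene name on the strand of the annotation. Levels were compared as log2(FPKM + 0.1), with 1 FPKM and a log2 difference of 2 as the limits for enrichment; neighbours less than 1.5-fold apart are named as such. Annotation was GENCODE (GRCm38), promoters were from RefSeq (GRCm38.p6), and both hepcidin genes were matched there; hairpins were sought in each gene's principal transcript and, for the share of all genes, in the longest coding one. The code of the enrichment rule and the likeness measure was checked on simulated data with known answers. Those data held a large rise in liver and an exact rescaled copy of a profile. They say nothing about low values or shared reads. Named in the text are the 10 genes, a fixed set of 17 further iron genes, list genes enriched in a tissue, the 3 nearest genes of each and marker genes. Other genes named, such as the neighbours of the ferritin genes, were chosen after their values were seen. Alternatives covered the pseudocount, scaling, fold, minimum FPKM, choice of locus and failed estimates. Python 3.11.15, pandas 2.3.3, NumPy 2.4.6, Biopython 1.88 and matplotlib 3.10.9 were used.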

Additional observations from a re-analysis of the deposited data

Results flagged for a closer look

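In 5 names a second locus, which the comparisons did not use, had a value above 0. It reached 55.9 FPKM in liver for Hamp, 18.5 FPKM in liver for Tfr2, 10.4 FPKM in skeletal muscle for Tfrc, 48.4 FPKM in liver for Slc40a1 and 371 FPKM in liver for Hpx. No control sample bears on these values.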

How the results depend on the processing

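The number of iron genes enriched in liver was 6 as reported and 5 to 8 over 14 alternatives, of which 12 were planned and 2, the whole removal of loci with a failed fit and the use of loci on the annotated strand, were chosen after seeing the data. With a 2-fold limit it was 8, with Slc40a1 and Ftl1 added, and with a pseudocount of 1 or a minimum of 5 FPKM it was 5, without Hamp2. The loci with a single name and the removal of loci with a failed fit give no value for Trf and a count of 5. No log2 ratio changed sign in 98 recomputed values: 93 stayed within 1.5-fold and on their side of the limit and 5 did not, among them Hamp2 at 2.00 with a pseudocount of 1, and Hamp (4.25), Trf (2.97), Cp (2.71) and Hpx (6.53) with upper quartile scaling. Median ratio scaling shifted the libraries by −0.25 (skeletal muscle) to 0.39 (SCAT) on the log2 scale and left 8 genes highest in liver. Upper quartile scaling shifted them by −0.38 (skeletal muscle) to 0.49 (SCAT), so folds near the 1.5-fold limit depend on the scaling. No paired analysis was possible because the series has 1 library per tissue. Depth limits the low values most: nothing says how many fragments lie behind the values of Hamp2 or a listed 0.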
